A study of Mus musculus with 10 samples.

Results

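The genes described here were 44 mouse genes of the endoplasmic reticulum (ER) protein folding and degradation system: the stress sensors Atf6, Atf6b and Ern1 with the transcription factor Xbp1, the lumenal chaperones, the enzymes that form disulfide bonds or isomerise prolines, and the machinery that removes misfolded proteins. They were listed by name, as genes of the ATF6 and IRE1/XBP1 arms of the unfolded protein response, ER chaperones and disulfide isomerases, or ER-associated degradation genes. No measured value entered the rule, though earlier results of these data were known when the list was made. The genes were matched by gene identifier in a table of 53801 genes. All 44 carried enough reads to be tested. RNA-seq gene counts had been made from AtT20/D16v-F2 cells, a mouse corticotroph line from a pituitary tumour that makes pro-opiomelanocortin, the precursor of the hormone ACTH. The control line stably expressed a non-targeting shRNA (n = 5 libraries) and the knockdown line an shRNA against Creb3l1 (n = 5 libraries), both delivered by lentivirus and grown in the same medium, and the labels name no added stressor. The comparison asks what a lower level of Creb3l1, an ER-bound transcription factor of the same family as ATF6, does to transcript levels. Each group was 1 stable line, so an effect of the knockdown and any other difference between the lines cannot be told apart, and the p-values measure the spread between 5 RNA samples of each line.

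Proteins that enter the secretory pathway are folded in the ER by BiP (Hspa5) and its co-chaperones, by the lectins calnexin and calreticulin, and by enzymes that shuffle disulfide bonds. When unfolded proteins accumulate, ATF6 is cut to release a transcription factor, IRE1 (Ern1) splices Xbp1 mRNA into its active form, and both factors raise chaperone and degradation genes through short promoter elements. Proteins that do not fold are recognised by EDEM proteins and lectins, pass a membrane complex of the ubiquitin ligase HRD1 (Syvn1), SEL1L and derlins, and are pulled out by the ATPase VCP. Cells that secrete large amounts of hormone, such as corticotrophs, depend on this system, and their precursor hormone passes through it.

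The libraries held 17420698 to 22205107 counts each. Creb3l1 itself (ENSMUSG00000027230, chr2:91982328-92024502, minus strand, GRCm38) gave 3805, 3864, 3695, 3551 and 3531 normalised counts in control replicates 1 to 5 and 1093, 1133, 1014, 1159 and 1051 in knockdown replicates 1 to 5. Every knockdown library lay below every control library (log2 fold change -1.76 ± 0.036 SE, edgeR adjusted p = 2.1e-33). Normalised counts are counts scaled to library size by the TMM method, and a gene was called changed at an adjusted p under 0.01. Control replicate 3 stood apart: the single gene Gm42418 took 4.13% of its counts, against 0.106% to 0.191% elsewhere, and its scaling factor was 0.953. Knockdown replicate 2 differed most from the other libraries of its line. Between pairs of libraries, the chi-square of the gene counts per degree of freedom was 5.47 to 9.23 with it, and 2.28 to 3.36 for the other knockdown pairs. The corticotroph markers were present. Their summed normalised counts ran from 150400 to 161500 in the control and from 108500 to 115400 in the knockdown libraries. Most of each sum was Pomc, at means of 131400 and 92040. Of the 6 markers, 3 were called lower (Pomc, Tbx19, Pcsk1) and 2 higher (Neurod1, Pitx1). Of the 9 markers of other pituitary cells, Prl, Tshb, Fshb and Pou1f1 were at 0 and 5 were detected. These 9 summed to between 85.5 and 105.2 in the control and between 58.75 and 82.7 in the knockdown libraries. Pax7, at means of 14.54 in the control and 5.899 in the knockdown line, was too low to be tested. The 6 fibroblast markers summed to between 844.1 and 1227 in the control and between 985.8 and 1776 in the knockdown line with Lum at 0, and the leukocyte and endothelial lists summed to at most 51.86 with Ptprc, Cd3e, Cdh5 and Kdr at 0. The part of these differences in the results below was not tested.

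The promoters of the 44 genes were read first, because both factors act through a known DNA element. The ER stress response element (ERSE), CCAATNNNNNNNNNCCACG, joins a site for the factor NF-Y to a site for ATF6 or XBP1, and ERSE-II, ATTGG and CCACG with 1 base between them, holds the same pair in a shorter arrangement. In RefSeq windows from 250 bases before to 50 bases after the transcription start (GRCm38.p6), searched on both strands, 38 of the 44 genes had a window. Atf6, Hyou1, Sil1, Manf, Erlec1 and Derl1 had none and were not searched. ERSE was present in 10 of the 38 (26.3%), against 18 of 10381 tested genes with a window (0.173%) and 37 of all 27025 (0.137%). ERSE-II was present in 2 of the 38 (5.26%), against 9 of the 10381 (0.0867%) and 12 of the 27025 (0.0444%). Many of the 44 genes are textbook targets of these elements, so the frequency describes the list and is no result of the knockdown. The sites below were chosen to show the same element in genes that rose (Hspa5, Dnajc3, Calr, Syvn1), in genes whose change did not pass the test (Hsp90b1, which has a pair, and Pdia6) and in its short form (Herpud1), with the letters fixed by the element in capitals. All lie before the RefSeq start of the gene, and the Hspa5 site falls inside the longer gene span of GENCODE.
Hspa5 (chr2:34772020-34772048, plus strand, ERSE from -65 to -47): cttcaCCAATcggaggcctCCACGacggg
Dnajc3 (chr14:118937822-118937850, plus strand, ERSE from -105 to -87): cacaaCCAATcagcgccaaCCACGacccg
Calr (chr8:84847070-84847098, plus strand, ERSE from -162 to -144): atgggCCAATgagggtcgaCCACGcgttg
Syvn1 (chr19:6046527-6046555, plus strand, ERSE from -44 to -26): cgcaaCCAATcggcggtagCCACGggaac
Hsp90b1 (chr10:86705528-86705556, plus strand, ERSE from -107 to -89): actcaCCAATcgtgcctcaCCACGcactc
Hsp90b1 (chr10:86705633-86705661, minus strand, ERSE from -212 to -194): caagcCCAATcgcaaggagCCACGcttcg
Pdia6 (chr12:17266486-17266514, plus strand, ERSE from -98 to -80): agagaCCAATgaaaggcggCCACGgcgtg
Herpud1 (chr8:94386372-94386392, plus strand, ERSE-II from -52 to -42): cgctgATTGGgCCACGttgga

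In Creb3l1 knockdown cells 23 of the 44 ER folding and degradation genes rose by a small amount, among them BiP, most of its co-chaperones, calnexin and calreticulin, and 4 fell, the oxidase Ero1l and the derlin Derl1 by a wide margin. In all 27 were called changed (61.4%), and the remaining 17 did not pass the test. Across all 14336 genes tested, 40.7% were called, 20.6% higher and 20.1% lower. The higher calls therefore made up 52.3% of the 44 genes and the lower calls, Derl1, Ero1l, P4hb and Sil1, 9.09%. The list's median mean count of 2440 was reached by 2071 of the genes tested, and small changes are easier to call at such levels. Among these 2071 genes 57.5% were called, 34.6% higher and 22.8% lower. Of the 22 list members in that range 14 were called (63.6%), 12 higher and 2 lower. For 26 of the 44 genes (59.1%) the knockdown libraries lay wholly outside the control range, 22 of them above and 4 below (Derl1, Ero1l, P4hb and, not called, Atf6b), against 36% of all genes tested. The median log2 fold change of the list was 0.13, with 37 values above 0 and 7 below, and the median over all genes tested was -0.0025. Increases were small: no gene rose by 1.5-fold, and the only members past that size were Derl1 and Ero1l, both downwards.

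**Figure D1:**
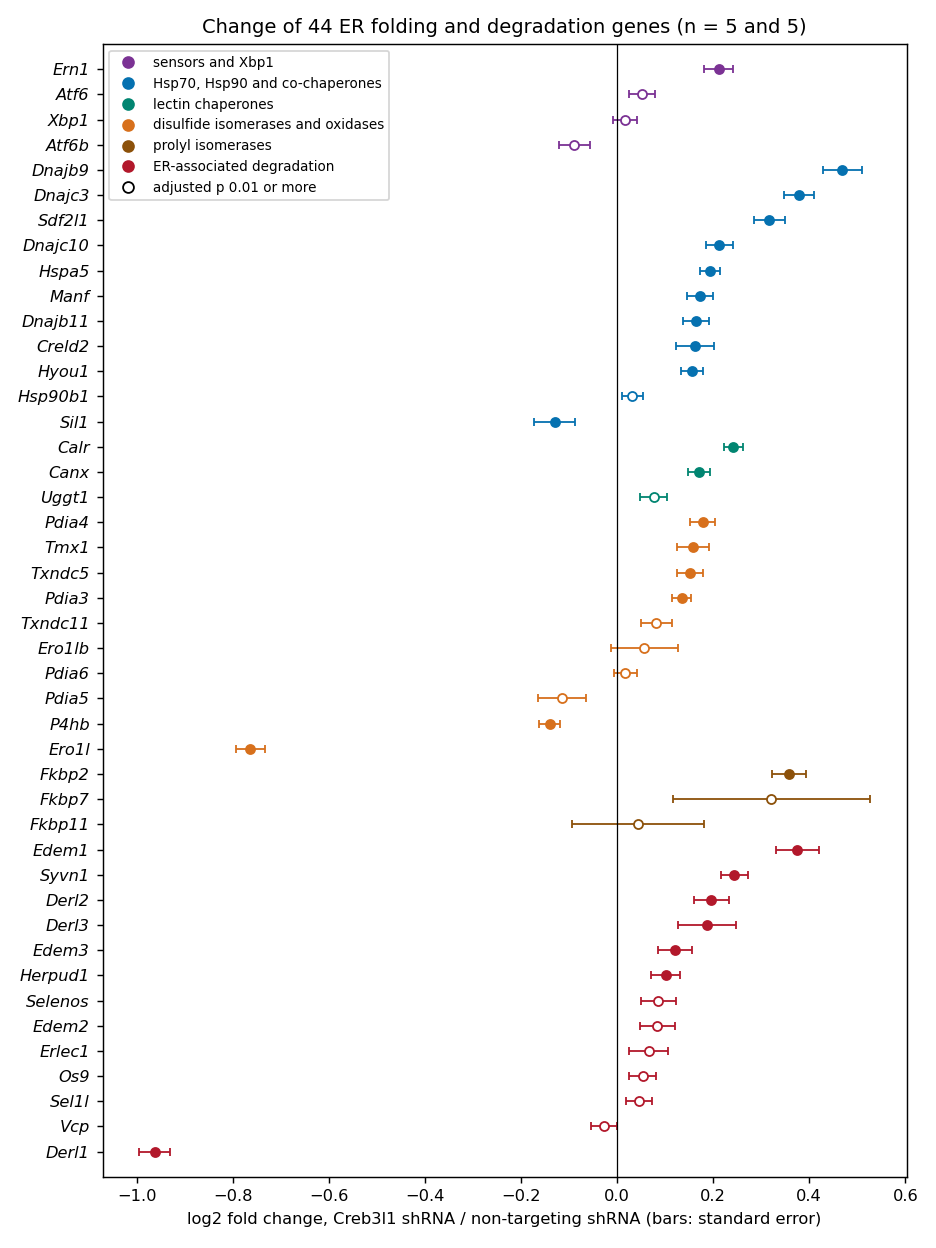
Log2 fold change (x axis, knockdown over control, error bars 1 standard error, 5 libraries of each line) of the 44 genes by role, with filled points for genes called at an adjusted p under 0.01. Filled points sit between 0.10 and 0.47 for the 23 genes called higher, while Derl1 (-0.96) and Ero1l (-0.76) lie far to the left of the others.

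The sensors and Xbp1 changed little, with 1 of 4 called higher (25%, against 40.7% of all genes tested called) and the other 3 not called. Ern1 (chr11:106394650-106487852, minus strand), which encodes the kinase and RNase IRE1, gave 2978, 2986, 2899, 2836 and 2996 normalised counts in control replicates 1 to 5 and 3421, 3573, 3338, 3188 and 3495 in the knockdown replicates. All knockdown libraries lay above all control libraries (log2 fold change 0.21 ± 0.030 SE, edgeR adjusted p = 1.1e-07). Xbp1, whose mRNA IRE1 splices, gave 5556, 5750, 5603, 5680 and 5438 in the control and 5656, 5772, 5702, 5689 and 5524 in the knockdown replicates. The groups overlapped almost fully (0.016 ± 0.025 SE, edgeR adjusted p = 0.63). Counts per gene do not separate spliced from unspliced Xbp1, and with offsets fitted to GC content and length of the transcript the Xbp1 value was 0.095 (edgeR adjusted p = 0.0003), a call made by no other alternative. Atf6 gave 3869, 3619, 3748, 3911 and 3912 in the control and 3951, 3986, 4060, 3889 and 3870 in the knockdown replicates, again overlapping (0.051 ± 0.028 SE, edgeR adjusted p = 0.12), and its sign turned with those offsets (-0.047). Atf6b, a paralogue of Atf6, had all 5 knockdown libraries (1784 to 1867) below the control libraries (1881 to 2044) but missed the threshold (-0.089 ± 0.031 SE, edgeR adjusted p = 0.016). Without knockdown replicate 2 Atf6b was called lower (-0.096, edgeR adjusted p = 0.0094), and with the offsets its value was -0.015 (edgeR adjusted p = 0.7).

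Of the 11 chaperones of the Hsp70 and Hsp90 type and their partners, 9 rose, Sil1 fell, and Hsp90b1 did not pass the test, for a group median of 0.17. Calls covered 90.9% of the group, against 40.7% of all genes tested and 57.5% of those at or above the list's median count. Hspa5 (chr2:34771970-34777547, plus strand), which encodes BiP, gave 22060, 21960, 21570, 22420 and 22310 normalised counts in the control and 24790, 26070, 25140, 25400 and 24700 in the knockdown replicates. The lowest knockdown library exceeded the highest control library, and BiP mRNA was 14.3% higher (log2 fold change 0.19 ± 0.020 SE, edgeR adjusted p = 1.4e-10). The largest increases of the group were in Dnajb9 and Dnajc3, which encode J-domain partners of BiP. Dnajb9 (ERdj4; chr12:44205559-44210326, minus strand), which also keeps IRE1 inactive, gave 964.6, 961.1, 942.6, 933.3 and 957.1 in the control and 1303, 1244, 1247, 1311 and 1473 in the knockdown replicates. Its control libraries lay within a narrow band and all knockdown libraries far above it (38.4% higher, 0.47 ± 0.041 SE, edgeR adjusted p = 8e-13), with replicate 5 the highest. Dnajc3 (p58IPK; chr14:118937976-118981697, plus strand), an inhibitor of the stress kinase PERK as well as a co-chaperone, gave 1818, 1817, 1775, 1759 and 1821 in the control and 2415, 2280, 2263, 2299 and 2422 in the knockdown replicates. The groups were again fully apart (29.9% higher, 0.38 ± 0.031 SE, edgeR adjusted p = 1.5e-13).

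The other members of this group called higher were Sdf2l1, a partner of ERdj3 (0.32), Dnajc10, a J-domain disulfide reductase (0.21), Manf, a secreted stress-inducible factor (0.17), Dnajb11, which is ERdj3 (0.16), Creld2, another stress-inducible ER protein (0.16), and Hyou1, a nucleotide exchange factor for BiP (0.16). Knockdown libraries lay wholly above the control libraries in all 6. With the GC and length offsets the value of Creld2 was 0.28 and that of Sdf2l1 was 0.45, above Dnajc3 at 0.31. Sil1, the other nucleotide exchange factor, went the opposite way: its control libraries spanned 939.9 to 1068 and its knockdown libraries 852.4 to 978.2, so the groups overlapped, and its fall was 0.13 on the log2 scale (-0.13 ± 0.042 SE, edgeR adjusted p = 0.0094). That call was lost when any of control replicates 1, 3, 4 and 5 or knockdown replicates 3, 4 and 5 was left out (edgeR adjusted p 0.011 to 0.064), with DESeq2 (0.022), and with the GC and length offsets, where the Sil1 value was -0.025. Hsp90b1, the ER Hsp90 (GRP94), is stronger per kilobase than every other chaperone of the group and its libraries overlapped, at 30190 to 31490 in the control and 29570 to 32170 in the knockdown line (0.031 ± 0.021 SE, edgeR adjusted p = 0.22). Knockdown replicate 2 was the low one, and without it Hsp90b1 was called higher (0.054, edgeR adjusted p = 0.0082).

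**Figure D2:**
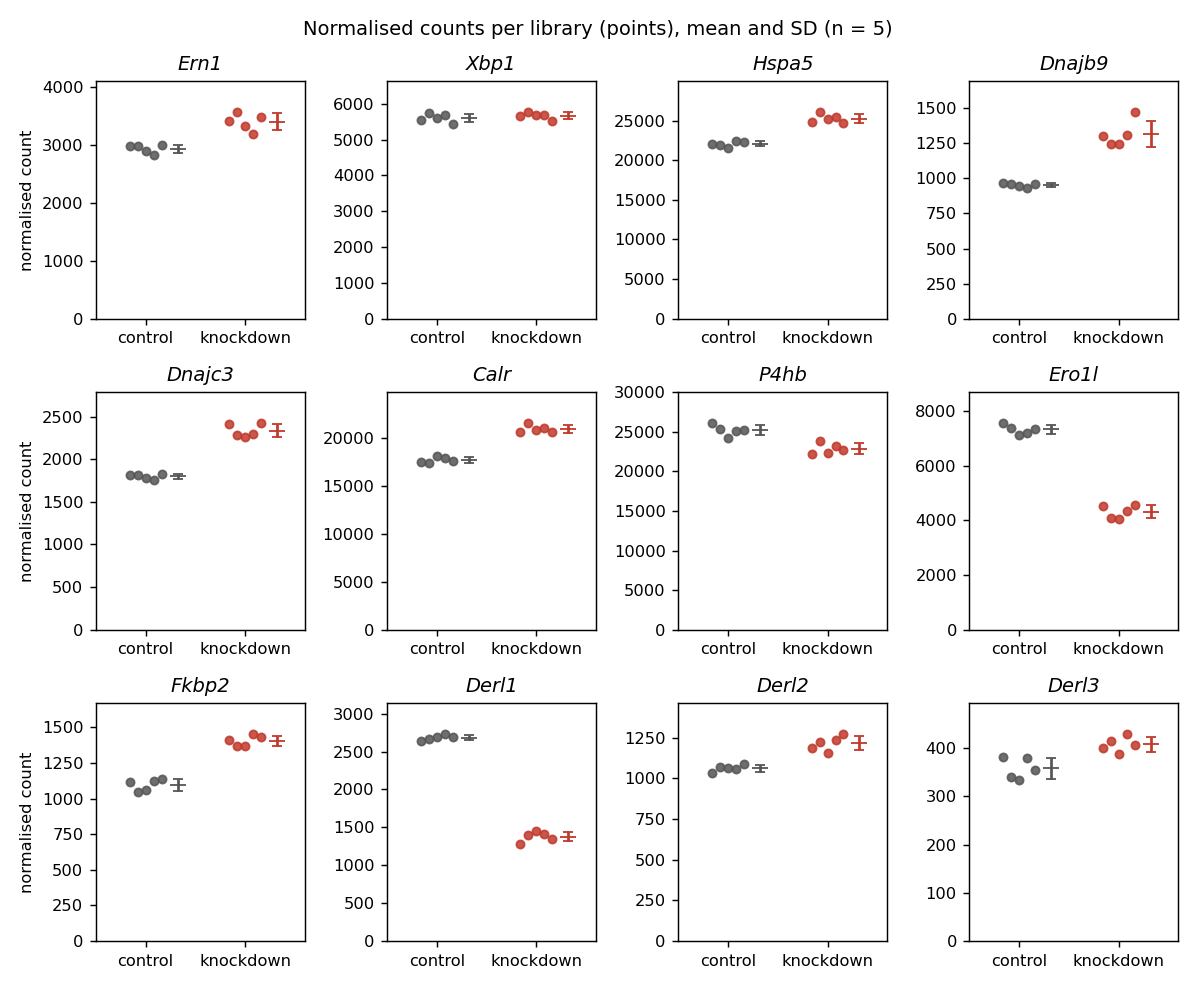
Normalised counts (y axis, from 0) of 12 genes in each control (grey) and knockdown (red) library, with the mean and SD of each 5. Points of the lines are separate for 11 of the genes, with Xbp1 the exception; Ero1l and Derl1 drop the furthest.

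Both lectin chaperones, which hold glycoproteins during folding, rose. Calr (calreticulin; chr8:84841850-84846934, minus strand) gave 17480, 17430, 18100, 17940 and 17560 normalised counts in the control and 20670, 21550, 20820, 21020 and 20600 in the knockdown replicates. Canx (calnexin; chr11:50293961-50325673, minus strand) gave 9022, 8762, 8872, 8935 and 8787 in the control and 10170, 9872, 9892, 10120 and 9893 in the knockdown replicates. In both genes every knockdown library was above every control library, by 18.3% for Calr (0.24 ± 0.021 SE, edgeR adjusted p = 3.9e-13) and 12.5% for Canx (0.17 ± 0.022 SE, edgeR adjusted p = 1.9e-08). Uggt1, the glucosyltransferase that returns unfolded glycoproteins to these lectins, had a value of 0.076 (edgeR adjusted p = 0.021), which turned to -0.029 with the GC and length offsets.

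The enzymes of disulfide bond formation divided. Of 10 genes, 4 rose (Pdia4 0.18, Tmx1 0.16, Txndc5 0.15, Pdia3 0.13), 2 fell (Ero1l, P4hb), and Txndc11, Ero1lb, Pdia6 and Pdia5 did not pass the test. The share called, 60%, was near the 57.5% of genes at or above the list's median count (40.7% of all genes tested). With the GC and length offsets Pdia6 was called (0.063, edgeR adjusted p = 0.0056, against 0.016 without them) and Pdia5 went from -0.12 to -0.021. Ero1l (ERO1 alpha; chr14:45283087-45318771, minus strand), the oxidase that passes oxidising equivalents to protein disulfide isomerase, gave 7559, 7395, 7130, 7213 and 7343 normalised counts in control replicates 1 to 5. In knockdown replicates 1 to 5 it gave 4527, 4085, 4067, 4336 and 4558. The highest knockdown library was far below the lowest control library, and the gene fell by 41.1% (log2 fold change -0.76 ± 0.030 SE, edgeR adjusted p = 7e-23). Its paralogue Ero1lb (ERO1 beta) gave 270.4 to 326.9 in the control and 286.1 to 338.1 in the knockdown libraries, which overlapped (0.057 ± 0.070 SE, edgeR adjusted p = 0.53). Per kilobase of exon, the sum of both oxidases was 1432 ± 34 (SD, n = 5) in the control and 863.3 ± 44.5 in the knockdown line, and Ero1l made up 96.8% of it in the control and 94.5% in the knockdown line. P4hb, protein disulfide isomerase itself and the main acceptor of these oxidising equivalents, gave 26090, 25390, 24220, 25150 and 25250 in the control and 22230, 23830, 22360, 23240 and 22680 in the knockdown replicates. Its groups did not overlap, and it fell by 9.32% (-0.14 ± 0.022 SE, edgeR adjusted p = 8e-07). With the GC and length offsets the P4hb value was -0.082, still called. P4hb, like Derl2, Derl3 and the paralogue sums, was singled out after its values were seen. Pdia4 (ERp72; chr6:47796141-47813430, minus strand), a large disulfide isomerase, gave 4800, 4719, 4719, 4796 and 4850 in the control and 5299, 5694, 5438, 5279 and 5308 in the knockdown replicates, fully apart (0.18 ± 0.026 SE, edgeR adjusted p = 3.3e-07).

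Among the 3 prolyl isomerases only Fkbp2 was called. Fkbp2 (chr19:6977741-6980501, minus strand), an ER-lumenal enzyme that turns peptide bonds before proline, gave 1115, 1045, 1064, 1125 and 1138 normalised counts in the control and 1409, 1372, 1372, 1452 and 1430 in the knockdown replicates. All knockdown libraries were above the control libraries, by 28.1% (0.36 ± 0.036 SE, edgeR adjusted p = 2.9e-11). Fkbp7 and Fkbp11 were barely expressed, at means of 27.84 and 74.84 normalised counts in the control line, and their libraries overlapped. The Fkbp7 value of 0.32 had an SE of 0.21 (edgeR adjusted p = 0.20), so a change of the size of that in Fkbp2 was not detectable at this depth, and the sign of Fkbp11 (0.044 ± 0.14 SE) turned when control replicate 1 or 3 or knockdown replicate 2 was left out (-0.030, -0.0026 and -0.037).

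The degradation machinery gave 6 genes higher (Edem1, Syvn1, Derl2, Derl3, Edem3, Herpud1), 1 lower (Derl1) and 6 not called of 13. Its share called, 53.8%, was near the 57.5% of genes at or above the list's median count (40.7% of all genes tested). Derl1 (derlin-1; chr15:57869502-57892448, minus strand), a membrane protein of the channel through which misfolded proteins leave the ER, gave 2636, 2666, 2691, 2728 and 2695 normalised counts in the control and 1286, 1396, 1450, 1411 and 1341 in the knockdown replicates. The groups were far apart, and Derl1 fell by 48.7%, the largest change of the 44 genes (log2 fold change -0.96 ± 0.033 SE, edgeR adjusted p = 4.3e-26). The 2 paralogues moved the other way. Derl2 gave 1034, 1066, 1060, 1054 and 1088 in the control and 1188, 1222, 1157, 1233 and 1270 in the knockdown replicates, fully apart (0.20 ± 0.037 SE, edgeR adjusted p = 1.8e-05). Derl3 gave 382.2, 341.2, 333.8, 379.3 and 354.5 in the control and 401.5, 416.3, 388.3, 429.2 and 406.2 in the knockdown replicates, apart by a small margin (0.19 ± 0.061 SE, edgeR adjusted p = 0.0096). The Derl3 call was lost without any of control replicates 2, 3 and 5 or knockdown replicates 1, 2, 4 and 5 (edgeR adjusted p 0.014 to 0.031) and with DESeq2 (0.015), while the GC and length offsets raised the value to 0.31. Per kilobase of exon, the 3 derlins summed to 1118 ± 14.6 (SD, n = 5) in the control and 769.4 ± 21.4 in the knockdown line, and the share of Derl1 in that sum was 72.1% ± 0.67 in the control and 53.8% ± 1.5 in the knockdown line.

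Edem1 (chr6:108828641-108859356, plus strand), which marks glycoproteins for disposal by trimming their mannose, gave 616.6, 689.8, 698.1, 666.7 and 634.6 normalised counts in the control and 808.5, 926.8, 845.7, 832.9 and 870.6 in the knockdown replicates. It was higher in every knockdown library, by 29.7% (0.38 ± 0.045 SE, edgeR adjusted p = 4e-09). Of its paralogues, Edem3 rose by 0.12 (edgeR adjusted p = 0.0040, with overlapping libraries), and Edem2 had a value of 0.084 (edgeR adjusted p = 0.054) that did not pass the test. With the GC and length offsets Edem2 was called, at 0.16 (edgeR adjusted p = 9e-05). The Edem3 call was lost without control replicate 3 or 4 or knockdown replicate 3 (edgeR adjusted p 0.011 to 0.021) and with the GC and length offsets (0.029). Syvn1 (HRD1), the ubiquitin ligase at the centre of the complex, rose (0.24, edgeR adjusted p = 2e-09), whereas its partner Sel1l, a scaffold, gave 0.045 (edgeR adjusted p = 0.17). Herpud1, which assembles the complex, rose by 0.10 (edgeR adjusted p = 0.0053), a call lost without any of control replicates 2, 4 and 5 or knockdown replicates 3 and 4 (edgeR adjusted p 0.012 to 0.017), and its value was 0.19 with the GC and length offsets. The glycan-reading lectins Os9 (0.053) and Erlec1 (0.065), the derlin partner Selenos (0.086) and the extracting ATPase Vcp (-0.028) did not pass the test. With the GC and length offsets Os9 (0.13, edgeR adjusted p = 1.4e-05) and Selenos (0.17, edgeR adjusted p = 4.3e-05) were called higher, and Sel1l turned to -0.033, not called.

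**Figure D3:**
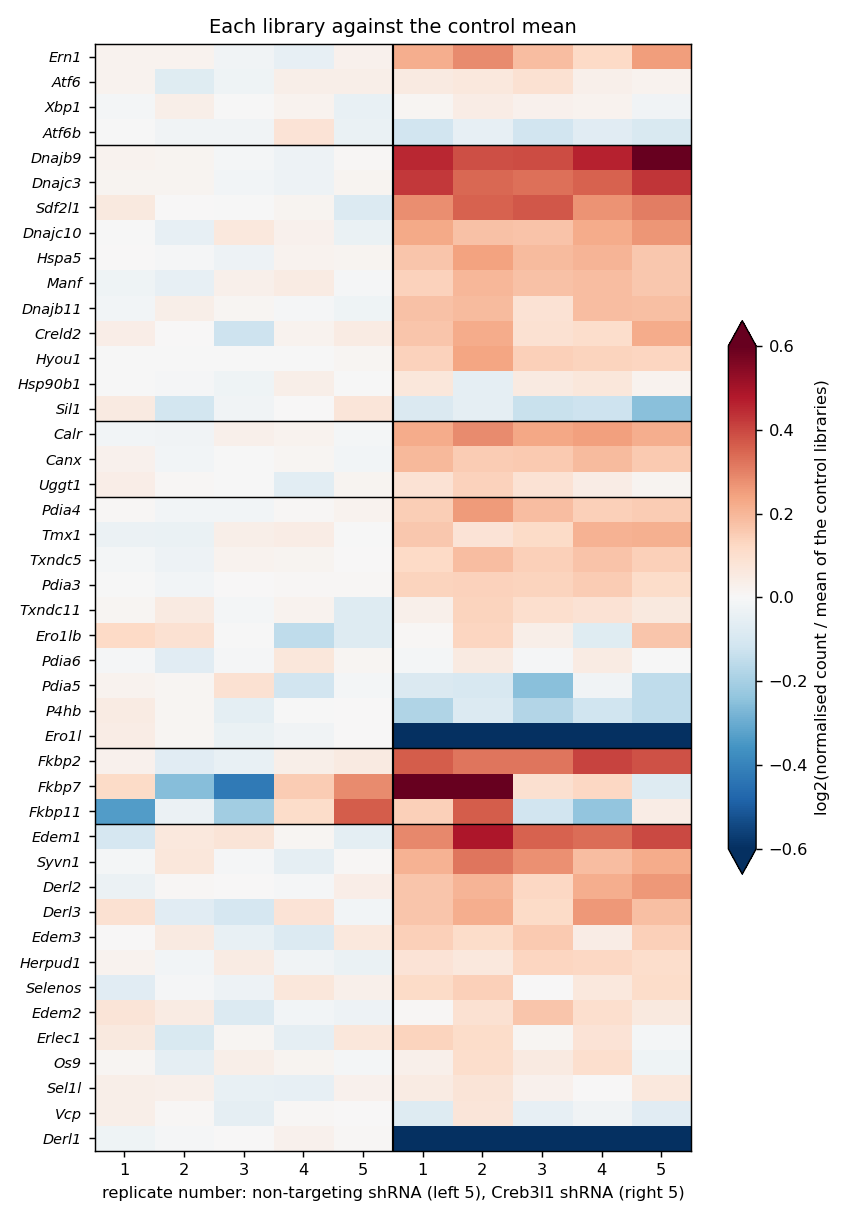
Log2 ratio of each library's normalised count to the control mean for the 44 genes (rows, by role and then by change) in 5 control (left) and 5 knockdown (right) libraries, with colours limited at 0.6 in either direction. The knockdown columns are mostly red in the chaperone block, and Ero1l and Derl1 are blue in all 5 knockdown libraries, whose log2 ratios lie beyond the colour limit.

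Levels per kilobase of exon, used here to compare genes, spanned from P4hb to Fkbp7. The length counted every annotated exon of a gene, whether or not these cells use it. The order of levels, and the paralogue sums and shares, depend on that length. In the control line P4hb stood at 8815 ± 233.8 (SD, n = 5) normalised counts per kilobase, followed by Hsp90b1 (7612), Pdia3 (6934), Calr (6146), Hspa5 (5218) and Pdia6 (2726), and no neighbours in that order overlapped. The lowest were Ero1lb (45.2), Fkbp11 (27.7) and Fkbp7 (18.8). Of the 5 strongest genes, 3 rose (Pdia3, Calr, Hspa5), P4hb fell, and Hsp90b1 did not pass the test. The 44 genes together took 1.09% to 1.17% of all counts in the control and 1.21% to 1.24% in the knockdown libraries. The spread between libraries of one line was narrow, with a median coefficient of variation over the 44 genes of 2.76% in the control and 3.28% in the knockdown line, against 5.21% and 5.74% over all genes tested.

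**Figure D4:**
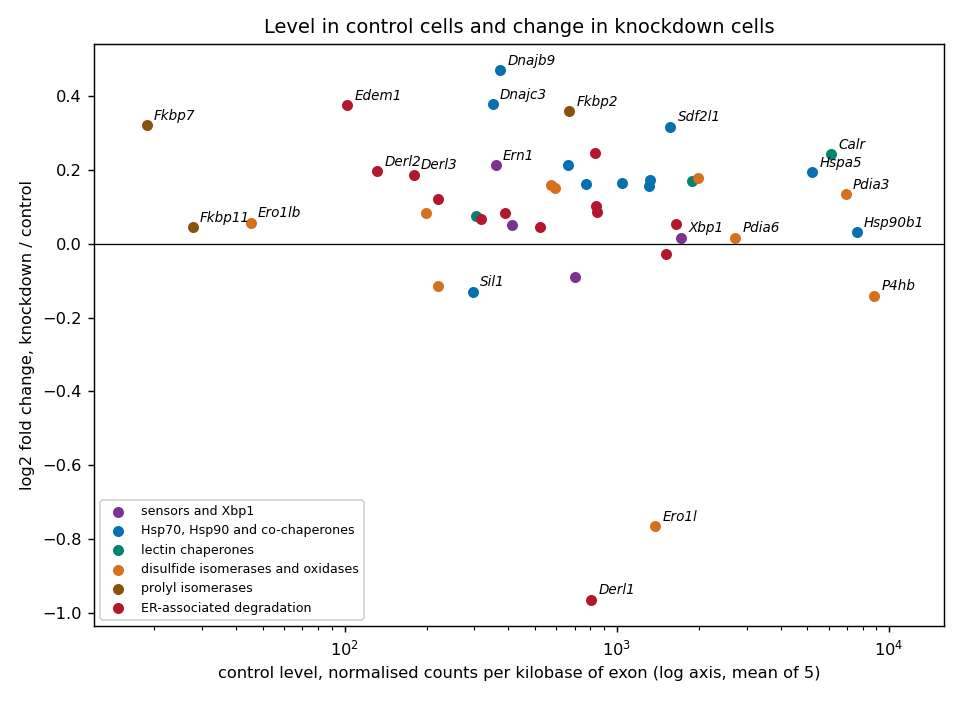
Control level (x axis, normalised counts per kilobase of exon, log axis, mean of 5 libraries) against log2 fold change (y axis, knockdown over control) for the 44 genes, coloured by role. Ero1l (1387 per kilobase) and Derl1 (806.2) lie in the middle of the range of levels, and the strongest gene, P4hb (8815), is also below 0.

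Set against the promoter elements shown above, the 12 genes with an ERSE or ERSE-II comprised 9 called higher (Dnajc3, Syvn1, Calr, Hspa5, Derl3, Canx, Dnajb11, Creld2, Herpud1) and 3 not called (Ero1lb, Hsp90b1, Pdia6), with a median log2 fold change of 0.17. None of the 12 was called lower, but of all 38 genes with a window only 2 were, with 21 higher and 15 not called. Over all genes tested, 20.6% were called higher and 20.1% lower. The 26 genes with a window but neither element comprised 12 higher, 2 lower and 12 not called, with a median of 0.10. Dnajb9, the largest increase, had no such element in its window, and Hsp90b1 had a pair of them. The difference between these subsets was not tested. A shorter element, GACGTG, the core that CREB3-family factors and XBP1 can bind, was present in 10 of the 38 windows (26.3%), against 1121 of 10381 tested genes with a window (10.8%) and 1933 of all 27025 (7.15%). It overlaps TGACGTGG, a core found in 3 of the 38 windows (7.89%, against 1.04% of tested genes with a window and 0.714% of all), since the longer word contains the shorter one. GACGTG was found in 3 of the 21 genes called higher that had a window (14.3%), in 5 of the 15 not called (33.3%), and in both genes called lower that had one, Ero1l and P4hb, the latter after its start. The other genes called lower, Derl1 and Sil1, had no window and were not searched. The Ero1l match, shown because Ero1l had the second largest change, lies before the RefSeq start but inside the longer GENCODE span, with the matched letters in capitals.
Ero1l (chr14:45318625-45318640, plus strand, match from -63 to -58): ctgcgGACGTGcagcg

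**Figure D5:**
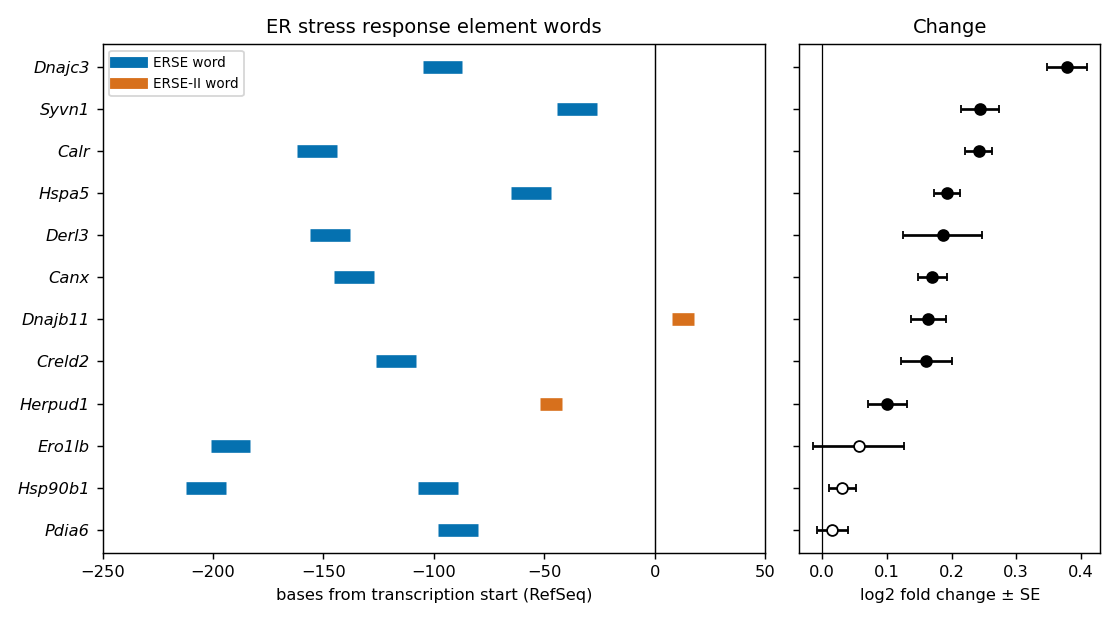
Left, position of ERSE (blue) and ERSE-II (orange) matches in bases from the RefSeq transcription start (x axis) for the 12 genes that hold one; right, log2 fold change with SE of the same genes, filled where called. The 9 filled genes lie between 0.10 and 0.38, and the 3 open ones are the lowest.

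Other genes of these pathways, from textbook lists, were counted beside these 44, with 40.7% of all genes tested called. Of 31 further ER folding genes tested, 11 were higher and 6 lower (54.8% called, median 0.065), with the prolyl isomerase Ppib showing the largest increase (0.34, edgeR adjusted p = 3.9e-14) and the sulfhydryl oxidase Qsox1 the largest decrease with at least 100 mean counts (-0.61, edgeR adjusted p = 8.2e-18). Of 34 further degradation genes tested, 6 were higher and 6 lower (35.3% called, median 0.023), led by the ubiquitin-conjugating enzyme Ube2j1, which works with HRD1 (0.42, edgeR adjusted p = 4e-15), and by Erlin1 (-0.29, edgeR adjusted p = 2.3e-08). Of 17 regulators of the ATF6 and IRE1 arms, 3 were higher and 4 lower (41.2% called, median -0.013), the lower ones including Creb3l1 itself and its paralogue Creb3l2 (-0.27, edgeR adjusted p = 1.2e-10). Of the subunits of NF-Y, which binds one end of ERSE, Nfya had the largest increase of this list (0.24, edgeR adjusted p = 1.7e-07), Nfyb was called lower (-0.14, edgeR adjusted p = 0.0014) and Nfyc was not called (0.10, edgeR adjusted p = 0.095). In the PERK and ATF4 arm, which lowers translation and raises amino acid genes, 5 of 14 were higher and 4 lower (64.3% called, median 0.021), with the ATF4 targets Atf5 (0.30, edgeR adjusted p = 9.3e-05) and Atf3 (-0.43, edgeR adjusted p = 2.8e-08) at the ends. Of 5 tested mRNAs that IRE1 can degrade, edgeR called 0, with 0 at an unadjusted p under 0.05 and 0 called by DESeq2. Sparc and Col6a1 were near the floor, at control means of 35.99 and 29.06 normalised counts (SE 0.42 and 0.39). Bloc1s1 had an SE of 0.10, so a change of the size of the 44 genes' median (0.13) was not detectable in these genes. Hgsnat (0.024 ± 0.039 SE) and Scara3 (-0.023 ± 0.046 SE) were measured more closely. Chaperones of the cytosol and mitochondria comprised 5 higher and 8 lower of 24 (54.2% called, median -0.038), from Hsph1 (0.18, edgeR adjusted p = 5.9e-08) to Hspb8 (-0.51, edgeR adjusted p = 1.3e-19). The difference between these lists and the 44 genes was not tested. Pomc, the main cargo of the pathway in these cells, fell (-0.51, edgeR adjusted p = 1.2e-16), and another corticotroph marker, Neurod1, rose (0.62, edgeR adjusted p = 3.2e-19). By quantitative PCR, the authors found Pomc mRNA unchanged in their AtT20 lines with Creb3l1 knockdown. By western blot they found less of the POMC prohormone in these lines, and no change in an ACTH intermediate. The reason why Pomc mRNA fell in the counts but not by quantitative PCR was not tested.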

How the data were processed

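Poly(A) RNA-seq libraries came from 10 RNA samples, 5 of each stable AtT20 line. The authors mapped reads to the GRCm38 genome using STAR and assigned them to Ensembl genes using featureCounts, and the deposited values are raw counts; whether counting used strand is not given in the sources used here. From these counts, genes passing the filterByExpr filter of edgeR 4.0.16 (R 4.3.3) were normalised by TMM and compared with the robust quasi-likelihood test, with Benjamini-Hochberg adjustment over all 14336 genes tested and a threshold of 0.01. The fits were also run on simulated counts with known changes. That simulation had far fewer changed genes than were called here and no library that stood apart, so it cannot vouch for these calls. Depth was 17420698 to 22205107 counts per library, and the biological coefficient of variation was 5.37%.

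Gene positions and exon lengths came from GENCODE (GRCm38), promoters from RefSeq (GRCm38.p6). Per-library values were given for Creb3l1, Xbp1, Atf6, Ern1, Hspa5 and, in each role group, the 2 called genes of largest absolute change with at least 100 mean counts. In the other lists the largest called increase and decrease above that level were named, and Creb3l2, Nfyb and Nfyc were added after their values were seen. The members and lists were chosen with earlier results of these data known. Replicate numbers were the last digit of the label numbers. Samples with the same number did not deviate together (correlations -0.0599 to 0.0366), so no block was used. Alternatives were DESeq2 1.42.0, other size factors, filters, thresholds, GC and length offsets, a replicate block and leaving out each library. A comparison of protein ends was not made.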

Additional observations from a re-analysis of the deposited data

Results flagged for a closer look

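In 4 cases 1 library of a line lay far from the other 4 for its gene, by Dixon's gap ratio at its 95% value for 5 samples; 90 groups of 5 were examined, and chance flags about 1 in 20 such groups. Hyou1 gave 9556 normalised counts in control replicate 5, where the other control libraries spanned only 9462 to 9474. Hyou1 also gave 11190 in knockdown replicate 2, above the other knockdown libraries at 10370 to 10460. Dnajb11 gave 3586 in knockdown replicate 3, below the others at 3811 to 3859. Creld2 gave 965.8 in control replicate 3, the library with a high share of Gm42418, below the others at 1055 to 1088. All 3 genes stayed called higher in knockdown cells when any library was left out.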

How the results depend on the processing

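The number of the 44 genes called was 27 and lay between 24 and 28 when each library was left out in turn, with 21 to 23 higher and 3 to 5 lower, a median of 0.12 to 0.15 (highest without control replicate 5, 0.1475) and 5408 to 6026 calls over all genes. DESeq2 called 25 of the 44 (5542 of all genes), library totals 26, no count filter 26, at least 10 counts in every library 26, and an adjusted p under 0.05 called 31. The non-robust fit, chosen after seeing the data, called 25. With at least 1.5-fold required, 2 were called (0 higher, 2 lower) of 1108 genes in all. With the GC and length offsets the count was 30 and the median 0.1459: Xbp1, Pdia6, Edem2, Os9 and Selenos gained a call, Sil1 and Edem3 lost theirs, and Atf6 (-0.047), Uggt1 (-0.029) and Sel1l (-0.033) changed sign without a call. Fkbp11 (0.044) ranged from -0.037 to 0.16 with 1 library left out, below 0 without control replicate 1 (-0.030) or 3 (-0.0026) or knockdown replicate 2. With the replicate block 27 were called (6013 of all genes), Uggt1 entering and Sil1 leaving. The labels do not say whether the numbers pair the samples. Of 900 values of single genes under alternatives, 824 kept direction and side of the threshold. The cause of these changes was not tested. Genes under about 100 counts, Fkbp7 and Fkbp11, limit what depth can show.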

Other observations

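The nearest tested genes to Derl1 and Ero1l on their chromosomes were looked at after the values were seen. Over all genes tested, 20.6% were called higher and 20.1% lower. Of the 8 tested neighbours of Derl1, 4 on either side, 5 were lower, 1 higher and 2 not called, with log2 fold changes from -0.40 to 0.42, none as low as Derl1. Among these, Mtbp (not called), Mrpl13 and Deptor (both lower) lay far off, at 2290 to 2700 kilobases from Derl1. The nearest, Tbc1d31 at 60.2 kilobases, was the lowest (-0.40, edgeR adjusted p = 4.8e-10). Also lower were 9130401M01Rik (147 kilobases) and Atad2 (234 kilobases), while Zhx2 (114 kilobases) was higher and Zhx1 (181 kilobases) not called. Of the 8 tested neighbours of Ero1l, 1 was lower, 2 higher and 5 not called, with values from -0.78 to 0.40. The lowest was Gm16439, 704 kilobases away, whose value was close to that of Ero1l itself (-0.76). The EDEM family summed to 710.2 ± 20.3 (SD, n = 5) normalised counts per kilobase in the control and 783.3 ± 21.1 in the knockdown line, and the ranges of the libraries, 687.8 to 736.2 and 757.6 to 812.1, did not overlap.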
